A study of Mus musculus with 6 samples.

Results

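Schwann cells wrap or ensheathe the axons of peripheral nerves, and 7 genes that mark them and their myelin were followed in mouse dorsal skin. The genes were given by name as Mbp, Pmp22, Prx, Ncmap, Cnp, Gfra3 and Scn7a, and all 7 were found among the 21959 genes of the deposited expression table. They were taken by name and not by a threshold on their values. Full-thickness dorsal skin of male C57BL/6 mice, shaved in telogen at 7 weeks of age, was profiled by bulk poly-A RNA-seq. In the vehicle group 3 mice received a daily topical mixture of 30% dipropylene glycol in distilled water, and in the rebamipide group 3 mice received 3% rebamipide on the same skin area, both for 7 days. Each library came from a different mouse. Bulk skin holds nerve together with epidermis, follicles, fat, vessel and muscle, so that fewer Schwann cells and less RNA per Schwann cell cannot be told apart.

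Skin nerves carry both myelinating Schwann cells, which build the compact sheath around large axons, and non-myelinating Schwann cells, which hold bundles of thin sensory and sympathetic axons. Compact myelin is held together by a small set of abundant proteins, among them myelin basic protein (Mbp) and peripheral myelin protein 22 (Pmp22). Periaxin (Prx) anchors the outer surface of the sheath to the basal lamina through Drp2 and dystroglycan, and the non-compact myelin associated protein (Ncmap) lies in its uncompacted regions. The gene dosage of Pmp22 and mutations of Prx are known causes of inherited demyelinating neuropathy.

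The total counts ranged from 38676018 to 39915276 in the vehicle libraries and from 32709801 to 34706852 in the rebamipide libraries. Transcripts of the mitochondrial genome took 2.59% to 5.36% and 13.3% to 22.0% of these counts, so the counts were scaled with edgeR's TMM factors and are given relative to library size (CPM). Of all genes, 14875 passed the filter on low counts, and the 7 genes were among them. The median log2 fold change over the genes tested was -0.175 under TMM. It was -0.778 when the total counts alone set the scale, and differences are to be read against this shift. The third rebamipide library held 0 counts of the basal keratinocyte gene Krt14 and stood apart in its epidermal genes. The first vehicle library stood apart in its melanocyte genes, whose summed level was 1052 CPM against 9.24 to 287 CPM in the other libraries.

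SOX10 and EGR2 are the transcription factors best known for switching on myelin genes, so the RefSeq promoter windows of the 7 genes (build GRCm38.p6, 250 bases before to 50 bases after a transcript start) were searched for the letters of the motifs of the SOX and EGR families. Windows were found for 5 of the 7 genes, 9 windows in all. The SOX letters AACAAAG, searched on both strands, lay in the window of Cnp and in no other of the 9, and they occur in 5.85% of all 32851 windows. The EGR letters GCGTGGGCG, searched the same way, lay in the window of Scn7a and in no other of the 9, and they occur in 0.612% of all windows. The windows of Cnp (chr11:100574689-100574988, plus strand) and Scn7a (chr2:66784861-66785160, minus strand) are shown because they hold a match, and that of Prx (chr7:27499074-27499373, plus strand) because this gene of the myelin sheath has none. Capitals mark the match, which in Scn7a is the reverse complement, CGCCCACGC. Each is written 5′ to 3′ on the strand of the gene.
Cnp: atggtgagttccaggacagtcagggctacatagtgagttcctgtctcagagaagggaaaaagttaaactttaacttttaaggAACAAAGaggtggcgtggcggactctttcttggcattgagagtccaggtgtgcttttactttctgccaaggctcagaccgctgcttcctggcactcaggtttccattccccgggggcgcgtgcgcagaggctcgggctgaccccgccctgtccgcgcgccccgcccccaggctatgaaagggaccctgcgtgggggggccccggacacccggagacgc
Scn7a: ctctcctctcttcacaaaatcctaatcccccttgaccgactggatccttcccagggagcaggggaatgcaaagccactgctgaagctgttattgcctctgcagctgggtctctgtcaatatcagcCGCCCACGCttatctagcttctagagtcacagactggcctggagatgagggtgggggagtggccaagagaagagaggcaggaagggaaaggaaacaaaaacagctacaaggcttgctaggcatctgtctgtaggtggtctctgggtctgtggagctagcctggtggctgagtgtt
Prx: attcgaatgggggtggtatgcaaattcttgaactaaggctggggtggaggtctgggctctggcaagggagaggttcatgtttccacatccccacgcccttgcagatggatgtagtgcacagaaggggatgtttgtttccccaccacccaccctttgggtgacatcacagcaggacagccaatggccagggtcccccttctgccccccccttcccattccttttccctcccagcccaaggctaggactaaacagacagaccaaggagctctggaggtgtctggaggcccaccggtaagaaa
A match describes these letters only and is not evidence of a bound site.

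None of the 7 genes passed the test between rebamipide and vehicle. With edgeR's quasi-likelihood test 0 of 7 had an adjusted p-value under 0.05 over the 14875 genes, where 6.51% of all genes tested were called lower and 14.1% were called higher. At an unadjusted p-value under 0.05 the count was also 0 of 7, beside 39.7% of all genes tested. DESeq2, which called 17.0% of all genes lower at an adjusted p-value under 0.05, called 0 of 7. At the thresholds named in the study's methods, an unadjusted p-value under 0.05 with a log2 fold change under -1, edgeR called 14.5% of all genes lower and 0 of the 7. Prx passed these thresholds when scaled by total counts alone (log2 fold change -1.41, unadjusted p = 0.0391 and adjusted p = 0.0826, edgeR) and with limma on log2(FPKM + 1) (-1.24, unadjusted p = 0.0247 and adjusted p = 0.0557). Ncmap had an unadjusted p of 0.0345 with limma on log2(FPKM + 1), at a log2 fold change of -0.93 (adjusted p = 0.0695). The fitted difference was below 0 for all 7 genes, as it was for 56.9% of all genes tested, with a median of -0.52 and a range from -0.90 for Ncmap to -0.21 for Mbp. The ranges of the groups overlapped for each of the 7 genes, whereas for 24.0% of all genes tested the highest rebamipide library lay below the lowest vehicle library. The 95% intervals were wide, with lower bounds from -2.41 for Ncmap to -1.26 for Mbp and upper bounds above 0 for all 7. Scaled by total counts alone, the 7 values lay between -1.46 for Ncmap and -0.81 for Mbp, beside the median of -0.778 over all genes on that scale, and again 0 passed an adjusted p-value of 0.05.

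**Figure D1:**
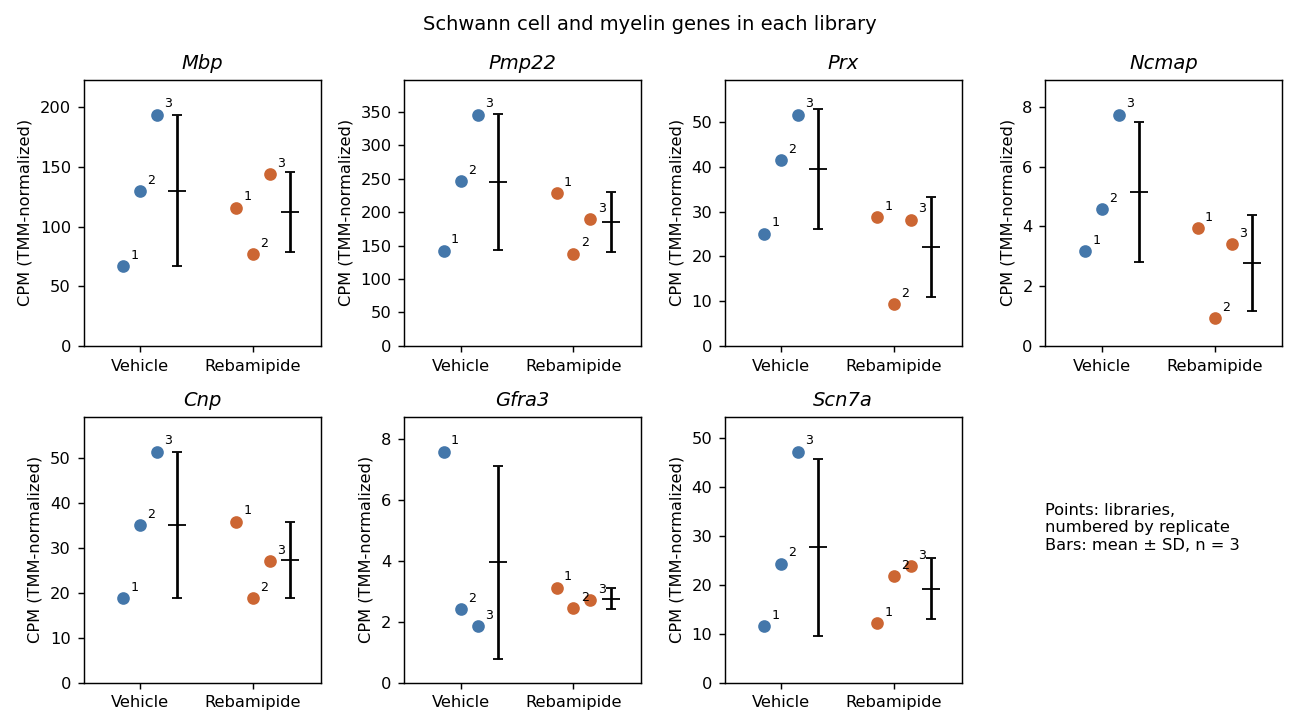
CPM (TMM-normalized) of the 7 genes in each library, numbered by replicate, with the group mean ± SD (n = 3) beside the points. In every panel the rebamipide points lie within or overlap the range of the vehicle points, and the first vehicle library is lowest for Mbp, Cnp and Scn7a and highest for Gfra3.

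Pmp22 (ENSMUSG00000018217, chromosome 11, 63019808 to 63050373 on the plus strand, build GRCm39) encodes a membrane protein of compact myelin that fibroblasts and epithelia also make. With vehicle it was at 142, 246 and 346 CPM, and with rebamipide at 228, 138 and 189.8 CPM. The rebamipide values fell inside the vehicle range except for the second library, just below it. The means were 245 ± 102 and 185 ± 45.3 CPM (SD, n = 3), a log2 fold change of -0.40 with a standard error of 0.38 and a 95% interval from -1.31 to 0.51 (adjusted p = 0.450, edgeR). It was -0.05 without the third vehicle library and -0.70 without the first.

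Mbp (ENSMUSG00000041607, chromosome 18, 82493271 to 82603762 on the plus strand) encodes myelin basic protein, which binds the inner faces of the myelin membranes together, and its locus also gives the longer Golli transcripts of non-myelinating and immune cells, which the gene-level counts do not separate. It was at 66.9, 129.7 and 194 CPM with vehicle and at 116, 77.2 and 144 CPM with rebamipide. All 3 rebamipide libraries lay between the lowest and the highest vehicle library. The log2 fold change was -0.21 (standard error 0.43, 95% interval -1.26 to 0.84, adjusted p = 0.736, edgeR). Its sign rested on single libraries, since it was 0.20 without the third vehicle library and 0.01 without the second rebamipide library.

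Cnp (ENSMUSG00000006782, chromosome 11, 100465730 to 100482555 on the plus strand) encodes the phosphodiesterase CNPase, which keeps cytoplasmic channels open within the myelin sheath. Its values were 18.8, 35.2 and 51.5 CPM in the vehicle group and 35.9, 18.9 and 27.2 CPM in the rebamipide group, so that the rebamipide range lay wholly inside the vehicle range. The log2 fold change was -0.37 (standard error 0.42, 95% interval -1.39 to 0.66, adjusted p = 0.541, edgeR) and 0.03 without the third vehicle library. The span of Cnp shares 8912 bases with Dnajc7 on the opposite strand (mean 86.2 CPM), and since the strand setting of the counting is not given in the sources used here, reads of the 2 genes may not be fully separated.

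Prx (ENSMUSG00000053198, chromosome 7, 27196813 to 27219639 on the plus strand), the gene of periaxin, was at 25.1, 41.5 and 51.6 CPM with vehicle. In the rebamipide libraries it was at 28.8, 9.24 and 28.2 CPM. Only the second rebamipide library lay below the vehicle range. The means were 39.4 ± 13.4 and 22.1 ± 11.1 CPM, a log2 fold change of -0.84 with a standard error of 0.50 (95% interval -2.04 to 0.37, adjusted p = 0.249, edgeR), and it was -0.46 without that library.

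Ncmap (ENSMUSG00000043924, chromosome 4, 135096887 to 135125538 on the minus strand) encodes a small membrane protein of non-compact myelin. Its counts were 158, 226 and 362 with vehicle and 120, 24 and 89 with rebamipide, equal to 3.16, 4.59 and 7.74 CPM against 3.95, 0.935 and 3.40 CPM. As for Prx, the second rebamipide library stood lowest, while the other rebamipide libraries lay within the vehicle range. The log2 fold change of -0.90 was the most negative of the 7 genes (standard error 0.62, 95% interval -2.41 to 0.61, adjusted p = 0.314, edgeR), and it was -0.48 without the second rebamipide library and -0.47 without the third vehicle library.

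Gfra3 (ENSMUSG00000024366, chromosome 18, 34822951 to 34853440 on the minus strand) encodes the co-receptor for artemin, a growth factor of the GDNF family that sensory and sympathetic axons follow, and it is also made by Schwann cell precursors. It had 379, 119 and 87 counts with vehicle and 95, 63 and 71 counts with rebamipide, or 7.59, 2.42 and 1.86 CPM against 3.13, 2.45 and 2.71 CPM. The first vehicle library stood far above the other 5, which lay close together. The log2 fold change of -0.52 (standard error 0.59, 95% interval -1.95 to 0.92, adjusted p = 0.537, edgeR) rested on that library, and without it the value was 0.35 (adjusted p = 0.478, edgeR).

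Scn7a (ENSMUSG00000034810, chromosome 2, 66503769 to 66615258 on the minus strand) encodes an atypical sodium channel, opened by extracellular sodium rather than by voltage, that non-myelinating Schwann cells are known to express. It was at 11.5, 24.3 and 47.2 CPM with vehicle and at 12.2, 21.7 and 23.9 CPM with rebamipide. The rebamipide range lay inside the vehicle range. The log2 fold change was -0.52 (standard error 0.54, 95% interval -1.84 to 0.79, adjusted p = 0.494, edgeR), and it was 0.10 without the third vehicle library.

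Compared per length, as TMM-scaled FPKM, Pmp22 was the most abundant of the 7 genes, Mbp the second and Cnp the third in all 6 libraries. The vehicle means were 104 ± 43.2 FPKM for Pmp22, 15.4 ± 7.51 for Mbp, 9.67 ± 4.49 for Cnp and 6.96 ± 2.37 for Prx. Below these stood Scn7a at 3.77 ± 2.47, Ncmap at 2.32 ± 1.05 and Gfra3 at 1.98 ± 1.58 FPKM. From Mbp downward, the mean ± SD of each gene overlapped that of its neighbour in this order, and by this measure only Pmp22 stood clear. These SDs are spreads between mice and do not test the order within a library, where Mbp stayed above Cnp each time. In the rebamipide group the means were 78.8, 13.3, 7.504, 3.90, 2.62, 1.24 and 1.38 FPKM for the same 7 genes in the same sequence. The table gives 1 length per gene, 8469 bases for Mbp, whereas the transcripts of that locus differ in length.

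Between the lowest and the highest library Pmp22 spanned 2.504-fold, Cnp 2.74-fold, Mbp 2.90-fold, Scn7a 4.11-fold, Prx 5.59-fold and Ncmap 8.28-fold. For these 6 genes the highest library was the third vehicle library. The lowest was the first vehicle library for Mbp, Cnp and Scn7a and the second rebamipide library for Pmp22, Prx and Ncmap. Gfra3 ran the other way, with its highest value in the first vehicle library and its lowest in the third vehicle library.

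**Figure D2:**
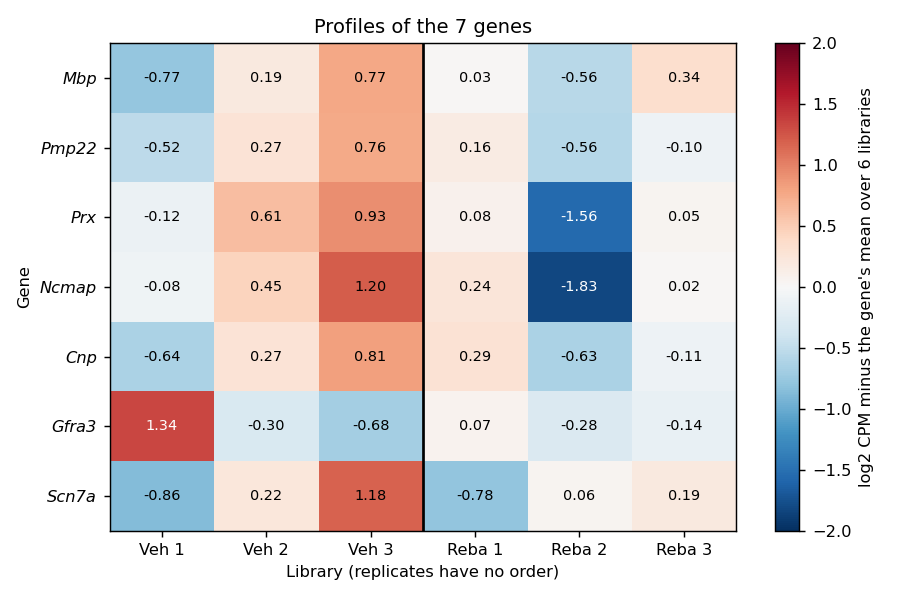
log2 CPM of each of the 7 genes in each library, minus the mean of the gene over the 6 libraries. Prx and Ncmap share the low value of the second rebamipide library (-1.56 and -1.83), and Gfra3 departs from the rest with 1.34 in the first vehicle library.

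Within a library, some pairs of genes kept nearly one proportion. The ratio of Cnp to Pmp22 counts was 0.132, 0.143 and 0.149 in the vehicle libraries and 0.157, 0.137 and 0.143 in the rebamipide libraries. It thus spanned 1.19-fold while the level of either gene spanned at least 2.504-fold. The ratio of Ncmap to Prx counts lay between 0.101 and 0.150 and spanned 1.48-fold, although Ncmap itself spanned 8.28-fold. Mbp against Pmp22 went from 0.470 to 0.760 with a span of 1.62-fold and was highest in the third rebamipide library. By contrast Prx against Pmp22 spanned 2.64-fold and was lowest, at 0.0669, in the second rebamipide library. Scn7a against Mbp spanned 2.69-fold, and Gfra3 against Mbp spanned 11.8-fold. The ratios are descriptions over 6 libraries that share their scaling, and they do not depend on it.

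**Figure D3:**
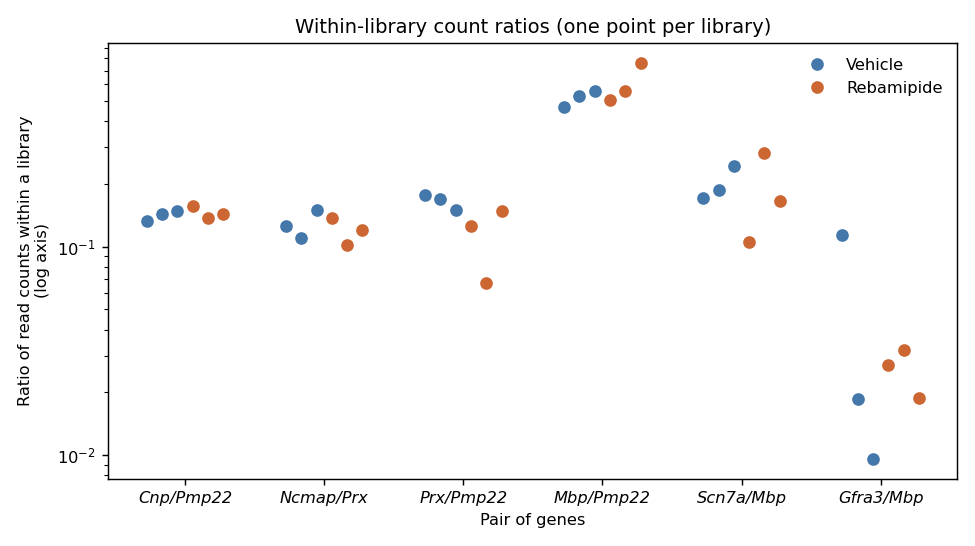
Ratio of the read counts of 2 genes within each library (log axis), 1 point per library, vehicle in blue and rebamipide in orange. The Cnp to Pmp22 points lie between 0.132 and 0.157 in both groups, whereas the Gfra3 to Mbp points spread from 0.00959 to 0.114.

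The closeness of profiles was also measured against all genes, as the root mean square difference of the mean-centred log2 CPM over the 6 libraries. Of the 14874 other genes tested, Cnp was the nearest to Pmp22 (0.08), followed by Il16 and Npy1r. Pmp22 was in turn the second nearest to Cnp, between Chst1 and Il16. Prx had Mal, a proteolipid of compact myelin, as the nearest gene (0.16), followed by Ddn and Ncmap. Ncmap had Ddn, Kif1a and Prx nearest. The nearest to Mbp was Sla2, a gene of no more than 0.941 CPM, and Dhh, the desert hedgehog signal of Schwann cells, came next (0.10), ahead of Fam124a. Scn7a stood nearest to Pilrb2, Fmo2 and the potassium channel gene Kcna2 and Gfra3 nearest to Sox12, Gm2115 and Evl. For Gfra3 the best placed of the other 6 was Pmp22 at rank 8427. By these ranks Pmp22 and Cnp stood together, as did Prx and Ncmap, while Mbp, Scn7a and Gfra3 had none of the other 6 among their nearest 3. Pmp22 and Cnp ranked 11 and 14 for Mbp. The ranks are descriptions over 6 libraries.

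Of 15 other myelin genes edgeR called 1 lower and 0 higher (adjusted p-value under 0.05), and their median log2 fold change was -1.09 against -0.175 over all genes tested. The call was Adgrg6, a receptor that starts myelination, with 24.8 ± 0.573 CPM in the vehicle and 6.13 ± 2.94 CPM in the rebamipide group (adjusted p = 0.0212 by edgeR for a log2 fold change of -2.02 ± 0.39, SE). Fa2h, which makes the hydroxylated fatty acids of myelin lipids and also of sebum and epidermal lipids, was at 68.1, 148 and 299.7 CPM with vehicle. It was at 61.3, 44.5 and 3.85 CPM with rebamipide and was lowest in the library without Krt14 counts (adjusted p = 0.150, edgeR). That library held Mbp at 144 CPM, within the vehicle range. Of this list Egr2, Pou3f1, Gldn and Adgrg6 were likewise at their lowest there, at 1.45, 0.153, 3.63 and 3.36 CPM. The part of the epidermis in these values was not tested.

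Of 16 Schwann lineage genes 15 were tested. By edgeR 3 were called lower and 1 higher, and the median log2 fold change was -1.10. The lower ones were Erbb3, the neuregulin receptor (108 ± 30.5 to 23.9 ± 12.3 CPM, adjusted p = 0.0248), the adhesion gene L1cam (24.9 ± 3.78 to 10.3 ± 3.87 CPM, adjusted p = 0.0473) and the adhesion gene Cadm4 (34.7 ± 9.72 to 14.2 ± 2.51 CPM, adjusted p = 0.0270, all edgeR). Over the same libraries the summed level of the 5 basal keratinocyte markers went from a range of 2321 to 3806 CPM to a range of 1.76 to 1033 CPM, with 2 of the 5 at 0 counts in the third rebamipide library, and its part in these differences was not tested. Sox10, the master regulator of the lineage, was at 6.65, 5.85 and 8.42 CPM with vehicle and 4.87, 1.95 and 3.82 CPM with rebamipide. The groups did not overlap, yet the difference did not pass (adjusted p = 0.134 by edgeR for a log2 fold change of -0.97 ± 0.41, SE). Of the 15 genes tested, 6 lay below the vehicle range without overlap, beside 24.0% of all genes tested. An unadjusted p-value under 0.05 was reached by 6, in either direction, beside 39.7% of all genes tested (edgeR). Ngfr went from 10.5 ± 3.75 to 5.79 ± 0.916 CPM and Ncam1 from 9.65 ± 2.75 to 4.34 ± 2.17 CPM. Neither overlapped between the groups nor passed (adjusted p = 0.115 and 0.107, edgeR). Cdh19 and Dhh, also typical of Schwann cells, overlapped between the groups, at log2 fold changes of -1.23 and -0.18. The calls of the lists depended on which libraries were kept, and that of L1cam also on the filter on low counts (adjusted p = 0.0556 without it, edgeR). When the second vehicle library was left out, edgeR called 0 genes of the whole table, and the adjusted p-values were 0.0972 for Adgrg6, 0.103 for Erbb3, 0.158 for L1cam and 0.0897 for Cadm4. Without the second rebamipide library they were 0.0983, 0.110, 0.154 and 0.118, and without the first vehicle library 0.0583, 0.0690, 0.108 and 0.0535 (edgeR). Adgrg6 was at 0.0504 and L1cam at 0.0736 without the third vehicle library, and L1cam was at 0.0931 and Cadm4 at 0.0765 without the third rebamipide library (adjusted p, edgeR). In each of these fits their log2 fold changes stayed below -1.

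S100b, a calcium-binding protein used as a Schwann cell marker that adipocytes also make, was the one gene of the myelin and Schwann lineage lists that rose. With vehicle it was at 4.19, 5.08 and 6.20 CPM and with rebamipide at 36.1, 78.6 and 70.0 CPM, so that the groups were far apart. Its log2 fold change was 3.58 (standard error 0.37, adjusted p = 0.00939, edgeR) and stayed between 2.64 and 3.86 under the other scalings, filters and tests and with each library left out. The adjusted p-value by edgeR was 0.0747 without the second vehicle library and 0.0573 without the second rebamipide library. The 6 adipocyte markers summed to 1093 to 2542 CPM with vehicle and to 8515 to 16580 CPM with rebamipide. The 6 brown adipocyte markers summed to 199.9 to 345 CPM and to 4826 to 12530 CPM. The part of fat tissue in the S100b difference was not tested. In the same rebamipide libraries the 7 genes summed to 428, 268 and 419 CPM, against 275, 484 and 699.6 CPM with vehicle.

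**Figure D4:**
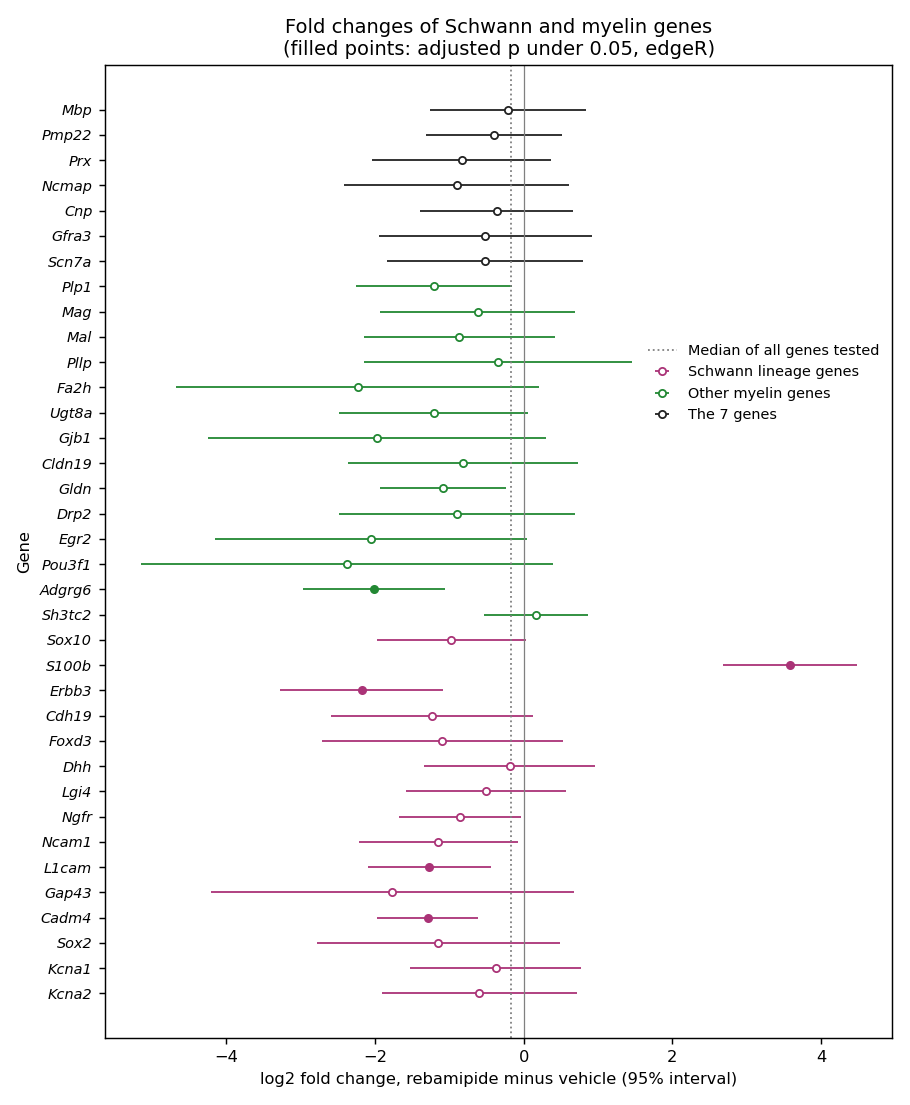
log2 fold changes, rebamipide minus vehicle, with 95% intervals for the 7 genes, other myelin genes and the Schwann lineage genes, where filled points have an adjusted p-value under 0.05 and the dotted line is the median of all genes tested (-0.175). The intervals of all 7 genes cross 0, and S100b alone lies clearly to the right at 3.58.

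In the families of the individual genes, the GDNF family was followed for Gfra3. Of its 8 other genes 1 was lower, Gfra1, the co-receptor for GDNF (16.6 ± 1.37 CPM with vehicle, 6.11 ± 2.20 CPM with rebamipide, adjusted p = 0.0292 by edgeR for a log2 fold change of -1.44 ± 0.32, SE), and 0 were higher. Its call was lost on leaving out any library but the first rebamipide library (adjusted p from 0.0638 to 0.119, edgeR). Artn, the ligand of Gfra3, was at 0.447 CPM or less in each library. Ret, the signalling receptor shared by the family, was at 28.2 ± 12.0 and 10.5 ± 9.69 CPM, and Gfra2 at 23.0 ± 3.72 and 11.5 ± 7.44 CPM, neither of which passed. Gfra4, the co-receptor for persephin, was at 1.05 ± 0.474 CPM with vehicle and 2.98 ± 0.292 CPM with rebamipide, higher in each rebamipide library, and did not pass (log2 fold change 1.51, unadjusted p = 0.0165, adjusted p = 0.0648, edgeR). The ligand gene Gdnf was at 2.13 ± 1.05 and 0.453 ± 0.327 CPM, lower in each rebamipide library, and did not pass either (log2 fold change -2.22, unadjusted p = 0.0366, adjusted p = 0.104, edgeR). Nrtn overlapped between the groups and reached 3.63 CPM at most.

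The 13 other sodium channel genes, which set Scn7a in its family, held 0 calls with edgeR. Of the 9 tested, 1 had an unadjusted p-value under 0.05, and their median log2 fold change was -0.50. Scn4b was at 95.2 ± 48.7 and 79.8 ± 102 CPM. Scn4a, the voltage-gated channel of skeletal muscle, was at 16.7, 85.7 and 118 CPM with vehicle and at 151, 32.8 and 0.801 CPM with rebamipide, and the 6 skeletal muscle markers summed to between 244 and 30510 CPM over the rebamipide libraries. Scn7a did not share that range, with 11.5 to 47.2 CPM over all 6 libraries. Scn2a, Scn3a, Scn2b and Scn3b reached 2.80 to 4.67 CPM at most. The channels of pain-sensing neurons, Scn9a, Scn10a and Scn11a, were at 0.278 CPM or less.

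The relatives of Pmp22, the epithelial membrane protein genes, held 0 calls by edgeR, with 3 of 4 tested and 2 at an unadjusted p-value under 0.05. Emp1 was at 683 ± 125 CPM with vehicle and 179.5 ± 123 CPM with rebamipide, and Emp2 at 438 ± 144 and 79.7 ± 68.3 CPM. Their groups did not overlap and neither passed (adjusted p = 0.0537 and 0.0614, edgeR), while Emp3 was at 30.3 ± 6.83 and 18.4 ± 14.5 CPM and overlapped. Lim2, the lens member, had 0 counts in all libraries. Emp1, Emp2 and Emp3 were lowest in the third rebamipide library, whereas Pmp22 was lowest in the second. The part of the epidermis in the Emp values was not tested.

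The 9 genes of the complex to which Prx binds included 1 call, and it was higher. Dag1, the gene of dystroglycan, was at 323 ± 22.5 CPM with vehicle and 648 ± 36.8 CPM with rebamipide (adjusted p = 0.0238 by edgeR for a log2 fold change of 1.00 ± 0.20, SE). Scaled by total counts alone the value was 0.38 (adjusted p = 0.148, edgeR), and limma on log2(FPKM + 1) also gave 0.38 (adjusted p = 0.0733). The adjusted p was 0.115 without the second vehicle library and 0.118 and 0.0771 without the second and the third rebamipide library (edgeR). Drp2, which links Prx to dystroglycan, was at 10.96, 23.6 and 43.4 CPM and at 19.1, 5.22 and 17.5 CPM. Drp2 thus followed Prx, with its lowest value in the second rebamipide library, and Dag1, which muscle, fat and epithelium also express, did not. Itga6, after Dag1 the most abundant gene of the list, was at 166 ± 30.1 and 129 ± 21.3 CPM and did not pass.

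Among the 9 genes of the signals from axons to Schwann cells, 3 were lower and 0 higher, namely Adgrg6 and Erbb3 named above and Erbb2, the partner of Erbb3 (84.3 ± 32.9 to 18.4 ± 12.7 CPM, adjusted p = 0.0463, edgeR). Erbb2 lost its call with edgeR on leaving out any library but the first rebamipide library (adjusted p from 0.0642 to 0.163) and without the filter on low counts (0.0535). Its lowest value, 7.44 CPM, was in the third rebamipide library, where Krt14 had 0 counts. The part of the epidermis in the Erbb2 difference was not tested. At an unadjusted p-value under 0.05 the count was 5 of the 9, beside 39.7% of all genes tested (edgeR). The neuregulin gene Nrg1 was at 6.53, 1.06 and 1.37 CPM with vehicle and at 0.329, 0.156 and 0 CPM with rebamipide. It did not pass (log2 fold change -4.15, unadjusted p = 0.0150, adjusted p = 0.0614, edgeR). Prnp, the gene of the prion protein, was at 305 ± 29.2 and 219 ± 75.4 CPM and did not pass. Of the 12 axon genes 5 were tested and 0 passed with edgeR, with 1 at an unadjusted p-value under 0.05. The cell bodies of skin axons lie outside the skin, and the neurofilament genes Nefl, Nefm and Nefh were at 0.214 CPM or less. Stmn2 was nearly level at 5.52 ± 0.893 and 5.41 ± 0.734 CPM. Tubb3, at 49.0 CPM in the first vehicle library and at 1.65 CPM in the third, was highest in the library where the melanocyte markers were highest and Mbp lowest.

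Markers of other cells that make myelin or share the lineage were examined beside the 7 genes. Of the 5 oligodendrocyte markers, 3 were at or under 3 counts in every library, and their summed level was 0.192 to 0.763 CPM, against 268 to 699.6 CPM for the 7 genes. The 6 melanocyte markers, of cells that also use Sox10, summed to 56.2 to 1052 CPM with vehicle and to 9.24 to 131 CPM with rebamipide. Of these Mitf alone was called lower (adjusted p = 0.0125, edgeR), and its adjusted p was 0.0747 and 0.0603 without the second vehicle or the second rebamipide library. Gfra3 and the melanocyte markers had their highest values in the same library, the first vehicle library, and the other 6 genes did not. The part of melanocytes in the Gfra3 value was not tested. The fibroblast markers, of cells that also make Pmp22, summed to 12000 to 17740 CPM with vehicle and to 15110, 3503 and 1850 CPM with rebamipide. Like this summed level, Pmp22 was highest in the third and lowest in the first of the vehicle libraries, and of the rebamipide libraries both were highest in the first. Between the other two rebamipide libraries the order differed, and the part of fibroblasts in the Pmp22 values was not tested.

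**Figure D5:**
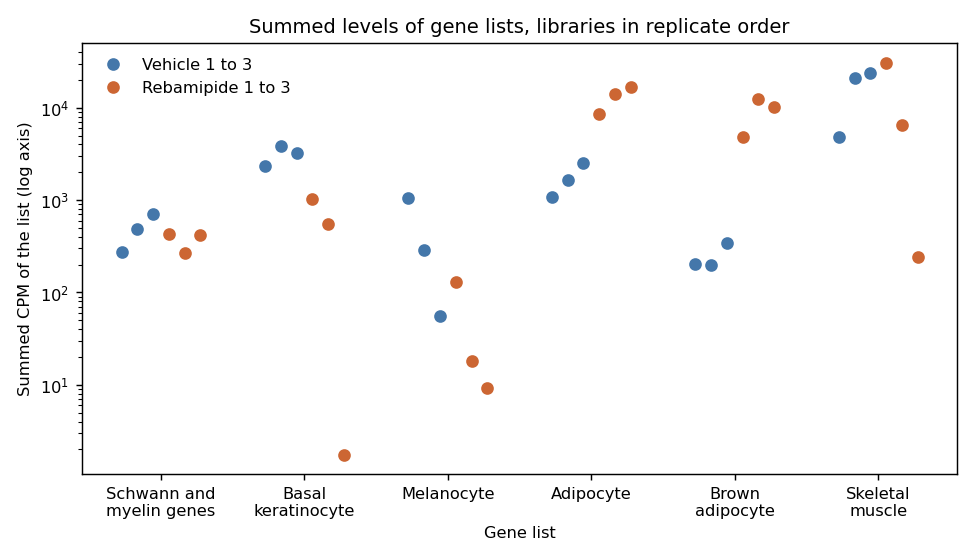
Summed CPM (log axis) of the 7 genes and of marker lists of other cell types in each library, vehicle in blue and rebamipide in orange. The 7 genes sum to 268 to 699.6 CPM in all libraries, while the basal keratinocyte list falls to 1.76 CPM in the third rebamipide library and the adipocyte lists lie higher in every rebamipide library.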

How the data were processed

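Poly-A RNA-seq of 6 skin libraries was used, 3 per group. The submitters' processing notes name fastp 0.22.0, HISAT2 2.1.0, HTSeq 0.9.1 and build GRCm39. The read counts deposited by the authors are whole numbers per gene without normalization, and the deposited FPKM are these counts relative to the length of the gene and to the library total. Groups were taken from the sample titles, and all 12 value columns were matched by name. Counts were tested in R 4.3.3 with edgeR 4.0.16 (TMM, filterByExpr, quasi-likelihood test, Benjamini-Hochberg adjustment over all genes tested), with DESeq2 1.42.0 and limma 3.58.1 as alternatives, and the code was tested on simulated data. Standard errors are the fold change over the root of the F statistic. Profiles used log2 CPM with a prior count of 0.5. The genes and lists were chosen with earlier results of these data known. Named are the 7 genes, the called genes of each list and its 2 genes of highest mean CPM, every gene above 1 CPM in the PMP22, GDNF and sodium channel families, and the 3 nearest profiles. Other genes were named after their values were seen. Replicates came from separate mice. Some genes of the lists are counted but not reported here. A count of 0 still allows 3 counts, 0.0600 to 0.117 CPM, for counting error only. Replicates differed by more than counting noise, by a chi-square over its degrees of freedom of 80.8 to 759.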

Additional observations from a re-analysis of the deposited data

How the results depend on the processing

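Of 105 values of the 7 genes under 15 alternatives, 0 passed an adjusted p-value of 0.05, 100 kept their direction and 5 reversed, all of them on leaving out 1 library. In fits with DESeq2 and each library left out, added after the data were seen, 5 of 42 values reversed and 0 passed. With each library left out, by either tool, the log2 fold changes ranged from -0.55 to 0.22 for Mbp, from -0.69 to 0.04 for Cnp, from -0.84 to 0.37 for Gfra3 and from -0.94 to 0.13 for Scn7a. With edgeR they were -0.70 to -0.05 for Pmp22, -1.09 to -0.46 for Prx and -1.25 to -0.47 for Ncmap. Reversals with DESeq2 were 0.22 and 0.01 for Mbp, 0.037 for Cnp, 0.37 for Gfra3 and 0.13 for Scn7a, and with edgeR 0.20 and 0.01 for Mbp, 0.03 for Cnp, 0.35 for Gfra3 and 0.10 for Scn7a.

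Over all genes, 2093 passed as higher and 968 as lower after adjustment with edgeR, and 0 to 3657 and 0 to 4189 with a library left out, by either tool. Scaling by total counts alone gave 1258 higher and 3752 lower, at least 10 counts in every library gave 1512 lower, DESeq2 2534 lower and limma on log2(FPKM + 1) 4809 lower. At the study's thresholds 2128 were higher and 2161 lower, with 1851 to 2507 and 1424 to 3772 on leaving out a library, 1129 and 4518 by total counts, and 879 higher by log2(FPKM + 1). The cause of these differences was not tested. With edgeR 0 genes were lower without the second vehicle or the second rebamipide library, so that the 0 of 7 there carries no information. Adgrg6, Erbb3, L1cam, Cadm4, Gfra1, Dag1, Erbb2 and S100b lost their calls in the same fits (S100b adjusted p = 0.0747 and 0.0573, edgeR) and kept them with DESeq2.

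Replicate numbers did not pair the samples (correlation of same-numbered deviations from -0.041 to 0.022). With a replicate block 1432 genes were higher and 855 lower, and the 7 genes had log2 fold changes from -1.05 for Ncmap to -0.13 for Mbp with 0 calls.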

Other observations

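The other marker lists of the skin samples were read in the same fit. By edgeR, 5 of 6 adipocyte markers rose (Fabp4, Adipoq, Plin1, Cidec and Lipe), as did 4 of 6 brown adipocyte markers (Ucp1, Cidea, Cox8b and Otop1) and 3 of 6 endothelial markers (Cdh5, Kdr and Emcn). Ucp1 had 0 counts in each vehicle library. Elovl3, also on the brown adipocyte list, was at 181 ± 55.1 CPM with vehicle and 66.3 ± 28.5 CPM with rebamipide, without overlap, and did not pass (adjusted p = 0.0575, edgeR). These 12 calls were lost with edgeR without the second vehicle library and without the second rebamipide library. Adipoq, Cidec and Emcn also lost theirs without the first vehicle or the third rebamipide library. The adjusted p of Emcn was 0.0511 with upper-quartile scaling and 0.0933 with total counts alone (edgeR), 0.0675 with limma on log2(FPKM + 1), and at most 0.153 with a library left out (edgeR). Pecam1 was at 128 ± 58.3 and 295.5 ± 22.4 CPM and did not pass (adjusted p = 0.0571, edgeR). The 5 leukocyte markers, of cells that can carry Golli-type Mbp transcripts, held 0 calls by edgeR, with 1 at an unadjusted p-value under 0.05, and summed to 308 to 669 CPM with vehicle and 177 to 658 CPM with rebamipide. The 6 fibroblast and 6 skeletal muscle markers also held 0 calls by edgeR, with 2 and 0 at an unadjusted p-value under 0.05. In the first vehicle library Dct and Tyrp1, pigment enzymes of melanocytes, were at 358 and 308 CPM. Krt5 and Krt14 were at 0.153 and 0 CPM in the third rebamipide library, and the muscle genes Acta1 and Myh4 at 80.9 and 70.4 CPM. Col3a1 and Col1a2 were at 797 and 347 CPM and Lyz2 and Adgre1 at 149 and 14.9 CPM in that library. The oligodendrocyte genes Olig1 and Mog reached 0.687 and 0.142 CPM at most.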
